A study of Mus musculus with 7 samples.

Results

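The genes described here encode collagens, laminins, nidogens, fibronectin, the proteoglycans perlecan and agrin, and the integrins that bind them. They were taken by gene symbol (symbols beginning Col, Lama, Lamb, Lamc, Nid, Itga or Itgb followed by a chain number or letter, plus Fn1, Hspg2 and Agrn). The set was chosen with earlier results of these data known. The table listed 65 of them among 12756 genes: 36 collagen chains, 7 laminin chains, 2 nidogens, Hspg2, Agrn, Fn1, 12 integrin alpha chains and 5 integrin beta chains. The study asked how blocking Dll4, a ligand of the Notch receptors, changes the RNA that endothelial cells of the retina translate. All mice were adult C57BL/6 animals of genotype Cdh5-CreERT2 Rpl22 tm1.1Psam, in which the endothelial Cdh5 promoter drives a Cre that tamoxifen switches on and that tags the ribosomal protein Rpl22 with HA. One group received a control IgG (3 libraries, here control IgG 1, 3 and 4) and the other an anti-Dll4 antibody (4 libraries, here anti-Dll4 1 to 4), so both carry the same Cre and tag. Retinal ribosomes were captured through the HA tag, and the RNA they held was made into QuantSeq libraries, whose reads come from the 3′ ends of polyadenylated transcripts. The dose and duration of the antibody and the induction schedule are not given by the labels.

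Blood vessels rest on a basement membrane, a thin sheet that endothelial cells and pericytes build together. Laminin heterotrimers (one alpha, one beta and one gamma chain) and collagen IV form its networks, and nidogens and the heparan sulfate proteoglycans perlecan (Hspg2) and agrin (Agrn) link them. Fibronectin (Fn1) is a more provisional matrix protein that is abundant around growing and injured vessels. Integrins are alpha-beta heterodimers in the cell membrane that bind these ligands and connect them to the actin cytoskeleton. In the retina the inner limiting membrane and Bruch's membrane are basement membranes too, so neuroglia and pigment epithelium also use these genes.

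The libraries held 1356192 to 1771086 reads each, and 1 read was worth 0.565 to 0.737 CPM (reads scaled to a common library total). A count of 3 reads, taken as the limit that a count of 0 allows, was 1.69 to 2.21 CPM. Such limits cover counting error only, because the protocol names no molecular identifiers. The pull-down was not pure endothelial RNA. Markers of rods summed to 27538 to 28857 CPM under control IgG and 12359 to 22250 CPM in anti-Dll4 libraries. The 20 endothelial markers, all listed, summed to 2166 to 3123 and 5286 to 6269 CPM, and 3 of them (Tek, Emcn and Sox17) were at 0 in at least 1 library. Of those 20 markers 17 had a log2 change above 0, and their median was 1.63. The part of these marker differences in the results on matrix and integrin genes was not tested. In such bulk RNA fewer cells of a type and less RNA per cell cannot be told apart. The labels do not say that the libraries are separate animals, so p-values describe how much these libraries vary, which may be partly technical.

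No matrix or integrin gene passed the test between anti-Dll4 and control libraries. A gene was tested when it had at least 1 CPM in at least 3 libraries, which 51 of the 65 did, and it passed at an adjusted p under 0.05 (limma on log2(CPM + 1), Benjamini-Hochberg over all 10899 genes tested). Over all genes tested, 13 passed, or 0.119%, and the smallest adjusted p among the 51 was 0.242. At an unadjusted p under 0.05 there were 3 of 51 (5.88%): Fn1 with a higher mean and Lama1 and Col8a2 with lower means in anti-Dll4 libraries. The same share over all genes tested was 7.09%. With limma-voom, which models the recovered reads, 1 of the 51, Lama1, passed, where 38 of all genes tested did, or 0.349%. Lama1 and Col8a2 had 0 reads in all 4 anti-Dll4 libraries. They entered the test through the control libraries alone, so they could only come out lower. Of the 51, 26 had a positive and 25 a negative log2 change, and their median was 0.03 against −0.14 over all genes tested. Of all genes tested 45.5% had a positive change. Log2 changes below are differences of mean log2(CPM + 1), anti-Dll4 minus control, with limma's standard error.

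The subfamilies had different medians, and none of these differences was tested. Of 25 tested collagens 9 were positive, and the median was −0.37. The 6 tested laminins split 3 and 3, with a median of 0.00. Of the nidogens, perlecan, agrin and fibronectin, 4 of 5 were positive, with a median of 1.03. Integrins were positive in 10 of 15, with a median of 0.40. Scaled on the endothelial markers, which moves the median of all genes tested from −0.14 to −1.57, the medians were −1.80 for collagens, −1.43 for laminins, −0.40 for nidogens, perlecan, agrin and fibronectin and −1.04 for integrins. With a filter of 5 CPM the 8 integrins left had a median of −0.22 and the 4 laminins left one of −0.94. With each library left out in turn, the medians ranged from −0.66 to −0.03 for collagens, from −0.66 to 0.63 for laminins, from 0.85 to 1.33 for nidogens, perlecan, agrin and fibronectin and from −0.27 to 0.81 for integrins. The integrin median was below 0 only without control IgG 1, where 7 of 15 were positive. The laminin median was lowest without anti-Dll4 3 and highest without control IgG 4. These medians are not over the same genes, because the filter was applied again in each fit. Without any 1 control library Lama1 was no longer tested and 5 laminins were left. Without anti-Dll4 1, 2 or 4 Lama4 was no longer tested.  On the scale of summed CPM, collagens held 1056 ± 232 (SD, n = 3) in control and 920 ± 269 (SD, n = 4) in anti-Dll4 libraries, and laminins held 164 ± 38.1 and 190 ± 159. Integrins held 311 ± 132 and 455 ± 156. Nidogens, perlecan, agrin and fibronectin held 750 ± 89.0 and 1659 ± 503, and this was the only one of the 4 sums whose groups did not overlap. Within it, Fn1 alone had groups that did not overlap. Perlecan and agrin summed to 430 to 566 CPM in control and 390 to 1193 CPM in anti-Dll4 libraries, and the nidogen sums overlapped too. The endothelial marker sums given above did not overlap either.

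**Figure D1:**
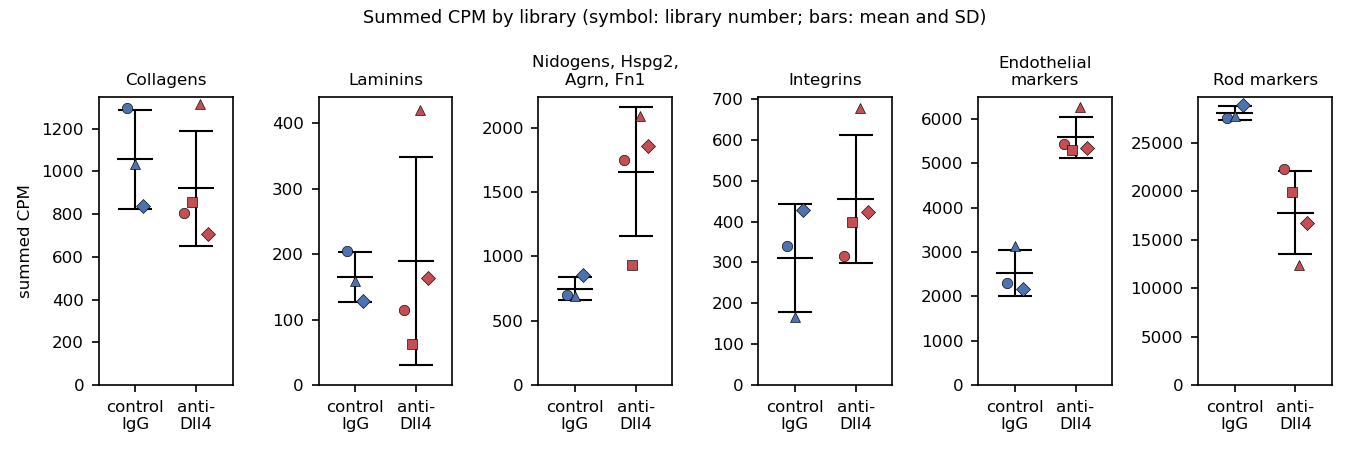
Summed CPM (linear axes from 0) of 4 groups of matrix and integrin genes and of the endothelial and rod markers in each library, with bars for the group mean and SD. The sum of nidogens, perlecan, agrin and fibronectin was 695 to 853 CPM in the 3 control libraries and 935 to 2090 CPM in the 4 anti-Dll4 libraries, while the sums of collagens, laminins and integrins overlapped. The endothelial (higher) and rod (lower) marker sums of anti-Dll4 libraries did not overlap those of control libraries either.

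Fn1 and Agrn held most of the sum of nidogens, perlecan, agrin and fibronectin. Fibronectin (Fn1) stood at 127, 262 and 421 CPM in control IgG 1, 3 and 4 and at 542, 544, 1028 and 711 CPM in anti-Dll4 1 to 4. Every anti-Dll4 library was above every control library, and the controls themselves spread widely. Means were 270 ± 147 CPM (SD, n = 3) and 706 ± 229 CPM (SD, n = 4). The log2 change was 1.49 ± 0.42, with a 95% interval of 0.63 to 2.36, an unadjusted p of 0.00173 and an adjusted p of 0.299 in limma. Fn1 was the only 1 of 51 (1.96%) whose libraries lay wholly higher in the anti-Dll4 group, against 3.84% of all genes tested. With control IgG 1 left out the change was 1.04, and with control IgG 4 left out it was 1.89. When libraries were scaled on the endothelial markers instead of on all reads, it was 0.06. Of the markers of cells that lie on vessels, smooth muscle markers (6 of 7 listed in the table, all 6 with a positive change, Acta2 and Smtn at 0 in at least 1 library) summed to 74.5 to 127 CPM under control IgG and 254 to 465 CPM under anti-Dll4. Only 1 of the 6, Lmod1 (means 39.2 and 137 CPM), had groups that did not overlap. Pericyte markers (5 of 8, with Pdgfrb, Kcnj8 and Notch3 at 0 in at least 1 library) summed to 85.0 to 190 and 80.1 to 259 CPM. Their part in the Fn1 values was not tested.

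The heparan sulfate proteoglycans had positive changes with overlapping groups. Agrin, which clusters acetylcholine receptors at the nerve-muscle synapse and is also a vascular and glial basement membrane protein, had 473, 338 and 363 CPM under control IgG and 1023, 299, 714 and 912 CPM in anti-Dll4 libraries. Anti-Dll4 2 lay below all 3 controls, and the other anti-Dll4 libraries lay above them. Its log2 change was 0.79 ± 0.40, with an interval of −0.04 to 1.61 (limma adjusted p = 0.706). Perlecan, which binds growth factors through its sugar chains, had 92.6, 94.4 and 67.1 CPM against 169, 91.1, 248 and 227 CPM. Again anti-Dll4 2 sat among the controls. The log2 change of Hspg2 was 1.03 ± 0.59 (−0.19 to 2.25, limma adjusted p = 0.740). Both changes turned negative when libraries were scaled on endothelial markers, to −0.65 for Agrn and −0.40 for Hspg2.

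The upstream sequence of Agrn is shown because it is built of repeated GC boxes (GGGCGG or its reverse complement CCGCCC, in capitals), the motif bound by Sp1-family factors. RefSeq places it on GRCm38.p6 at chr4:156197489-156197738, minus strand, in the 250 bases before the transcription start, where no annotated exon lies.
Agrn: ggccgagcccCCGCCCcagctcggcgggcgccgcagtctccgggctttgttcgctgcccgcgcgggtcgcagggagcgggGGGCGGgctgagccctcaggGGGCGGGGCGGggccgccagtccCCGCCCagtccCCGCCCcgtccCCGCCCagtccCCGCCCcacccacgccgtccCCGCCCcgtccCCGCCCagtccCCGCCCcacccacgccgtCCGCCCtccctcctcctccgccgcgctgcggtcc
It holds 12 such matches on the 2 strands. RefSeq promoter windows (250 bases before to 50 after a start) were matched by symbol for 48 of the 65 genes, with 53 windows. These include members that were not tested, such as Col17a1 and Lama2, while the comparison windows are of tested genes only. A GC box on either strand was found in 66.0% of the member windows, against 61.4% of the windows of all genes tested. The TGGGAA core bound by the Notch effector RBPJ was in 26.4% against 22.8%, CCAAT in 28.3% against 37.7% and TATAAA in 7.55% against 7.28%. A match describes letters only and not a site.

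The vascular collagen IV chains Col4a1 and Col4a2, which form the main collagen IV trimer of vessels, had higher means in anti-Dll4 libraries and groups that overlapped. Col4a1 had 21.2, 30.2 and 20.2 CPM under control IgG and 15.4, 75.2, 357 and 98.8 CPM in anti-Dll4 libraries. The lowest of the 7 values was also an anti-Dll4 one, and anti-Dll4 3 held 57.7% of the CPM over the 7 libraries. Col4a2 had 33.0, 28.0 and 45.6 against 70.3, 41.6, 185 and 81.3 CPM, again with anti-Dll4 3 highest. The log2 changes were 1.74 ± 1.01 for Col4a1 (limma adjusted p = 0.745) and 1.20 ± 0.84 for Col4a2 (limma adjusted p = 0.791). Without anti-Dll4 3 the change of Col4a1 was 1.03, and under scaling on endothelial markers that of Col4a2 was −0.23. The other 4 collagen IV chains, known from kidney, eye and smooth muscle basement membranes, were seen in few libraries: Col4a3 had 63 reads, all in anti-Dll4 2, and Col4a6 had 14, all in anti-Dll4 4. Col4a4 and Col4a5 had reads in 3 and 4 libraries, in both groups.

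Col4a1 and Col4a2 are transcribed head to head, and the sequence between their starts is printed because the pair shares it. On GRCm38.p6 (RefSeq) the minus-strand start of Col4a1 is at 11312826 and the plus-strand start of Col4a2 at 11312805 of chromosome 8, so that their first 22 bases overlap at chr8:11312805-11312826, written here on the plus strand with its GC box in capitals.
Col4a1 and Col4a2: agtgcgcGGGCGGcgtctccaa
The order of the libraries was not the same for both chains. In anti-Dll4 1 Col4a1 was lowest of the 7 libraries while only anti-Dll4 3 and 4 were higher for Col4a2.

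Of the 6 tested laminins, Lama1 had the smallest p in limma, though not the highest mean CPM. Its chain belongs to laminin-111, which is known from the inner limiting membrane and the hyaloid vessels. Lama1 had 76, 91 and 30 reads in control IgG 1, 3 and 4 and 0 reads in all 4 anti-Dll4 libraries. In CPM this was 44.8, 67.1 and 19.6 against 0, so the mean was at least 24.2-fold lower in anti-Dll4 libraries when each of them is set to a floor of 3 reads. The fitted log2 change was −5.32 ± 1.41 (−8.25 to −2.40, unadjusted p = 0.00109, limma adjusted p = 0.242). Limma-voom gave an adjusted p of 0.0213. Because the antibody group was at 0, Lama1 entered the test through the control libraries alone.

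The other laminin chains varied from library to library. Lama4 and Lama5 are the main alpha chains of endothelial basement membranes. Lama4 had 0 reads in the 3 control libraries and 21, 2, 0 and 76 in anti-Dll4 libraries, and so entered the test through the antibody group alone. Its mean was at least 7.35-fold higher against a floor of 3 reads in each control library, with a log2 change of 2.63 ± 1.28 (limma adjusted p = 0.705). Lama5 had 110, 36.9 and 41.1 CPM under control IgG and 0, 11.0, 114 and 59.3 CPM in anti-Dll4 libraries, which spans the control range on both sides. Its change was −1.73 ± 1.45 (limma adjusted p = 0.834). Lamc1, the gamma chain of most laminins, had 2, 0 and 2 reads against 39, 1, 64 and 3 reads, with a change of 2.25 ± 1.47 (limma adjusted p = 0.770). The beta chains had changes near 0 with wide errors, 0.14 ± 1.43 for Lamb1 and −0.14 ± 1.23 for Lamb2. Lamb1 nevertheless reached 386 reads in anti-Dll4 3 and 2 reads in anti-Dll4 2. Lama2, the alpha chain of muscle and glial basement membranes, had 48 reads in anti-Dll4 4 and 0 elsewhere.

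Nidogens, which bridge laminin and collagen IV, were scarce. Nid1 had 0, 0 and 2 reads in control and 2, 1, 175 and 14 reads in anti-Dll4 libraries, so that anti-Dll4 3 held 89.9% of its CPM. The log2 change was 2.53 ± 1.44 (limma adjusted p = 0.740). Nid2 had at most 23 reads in any library, with a change of −0.22 ± 1.24 (limma adjusted p = 0.982).

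**Figure D2:**
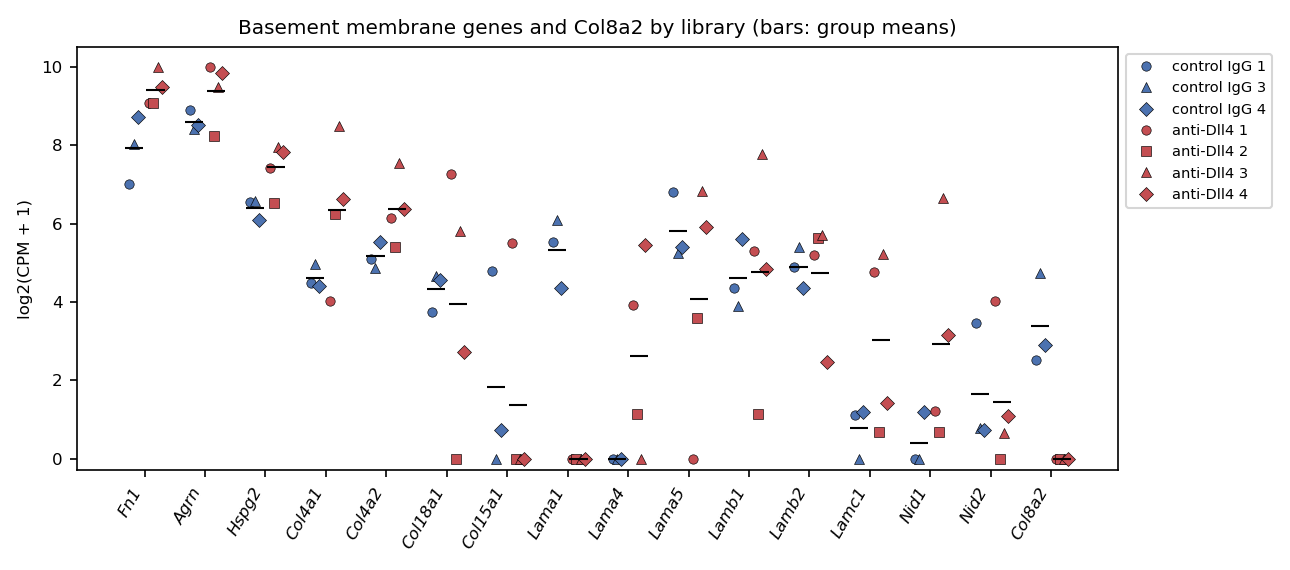
Level of the named vascular basement membrane genes, Lama1 and Col8a2 in each library on the log2(CPM + 1) scale, with bars for the group means. All 4 anti-Dll4 libraries lie above the 3 control libraries for Fn1 and at 0 for Lama1 and Col8a2, while Col4a1, Col4a2 and Nid1 have their highest value in anti-Dll4 3.

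Of the 25 tested collagens, 16 had a negative change. Col8a2 encodes a chain of the short-chain network collagen of Descemet's membrane and subendothelial matrix. Its reads were 8, 35 and 10 in control and 0 in all 4 anti-Dll4 libraries, at least 6.83-fold lower against the same floor. Its log2 change was −3.39 ± 1.07 (−5.61 to −1.17, unadjusted p = 0.00461, limma adjusted p = 0.393), and it too was tested through the control group alone. Lama1, Col8a2 and the integrin Itga2b were the 3 of 51 (5.88%) whose libraries lay wholly lower in the anti-Dll4 group, against 3.75% of all genes tested. With 0 reads under anti-Dll4, Lama1 and Col8a2 could enter the 51 only in this way, so the filter fixed their part of the share. The sequence upstream of Col8a2 is printed as that of a gene with no reads under anti-Dll4. It lies at chr4:126286544-126286783 of GRCm38.p6 (RefSeq), plus strand, with its 3 GC boxes in capitals.
Col8a2: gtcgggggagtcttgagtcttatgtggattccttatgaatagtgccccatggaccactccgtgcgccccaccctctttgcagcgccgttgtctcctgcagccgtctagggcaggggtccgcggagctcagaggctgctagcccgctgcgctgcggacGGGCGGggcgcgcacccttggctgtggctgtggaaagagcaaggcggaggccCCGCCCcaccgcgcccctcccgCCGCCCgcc
No RefSeq window was matched for Fn1 or Lama1.

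Markers of other cell types were measured in the same libraries as Lama1 and Col8a2. Astrocyte markers, 3 of 6 listed in the table, summed to 0 to 68.6 CPM under control IgG and 0 to 7.93 CPM in anti-Dll4 libraries, and each of the 3 (Gfap, S100b and Aldoc) was at 0 in at least 1 library. Pigment epithelium markers, 3 of 9, summed to 25.4 to 129 and 0 to 87.2 CPM. Lens markers, 5 of 8, summed to 1.18 to 56.0 and 8.56 to 333 CPM, and Müller glia markers, 11 of 11, to 1586 to 2612 and 1898 to 2626 CPM. Glul held most of that last sum (means 1428 of 2010 CPM in control and 1334 of 2340 CPM in anti-Dll4 libraries). Of the 11, 8 had a positive change and 3 a negative one. Kcnj10, Sox9 and Crym, all 3 pigment epithelium markers and all 5 lens markers were at 0 in at least 1 library. The part of all these markers in the Lama1 and Col8a2 values was not tested.

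Col27a1, Col23a1 and Col9a1 had the highest mean CPM of their subfamilies. Col27a1, a fibrillar chain of cartilage and neural tissue, had 312, 291 and 53.4 CPM under control IgG and 32.1, 93.0, 117 and 66.6 CPM in anti-Dll4 libraries. Control IgG 4 lay within the anti-Dll4 range, and the log2 change was −1.27 ± 0.73 (limma adjusted p = 0.740). Col23a1, a transmembrane collagen, had 204, 60.5 and 112 CPM against 125, 70.9, 28.9 and 10.2 CPM, with a change of −1.43 ± 0.90 (limma adjusted p = 0.763). Col9a1, a chain of the vitreous FACIT collagen IX, was the steadiest, at 179, 104 and 63.2 CPM against 139, 87.5, 97.4 and 84.1 CPM, with a change of −0.08 ± 0.64 (−1.41 to 1.25, limma adjusted p = 0.988). Of 6 tested FACIT collagens 1 was positive, of 7 fibrillar collagens 3, and of 3 collagen VI chains 1. Col6a1, the member of that last group with the highest mean, had 31, 8 and 148 reads against 0, 42, 0 and 21 reads, with a change of −2.45 ± 1.81 (limma adjusted p = 0.804). Col7a1, the anchoring fibril collagen of epithelia, had 40.7, 78.2 and 115 CPM against 46.2, 22.0, 23.8 and 21.5 CPM. Only anti-Dll4 1 reached the control range, and the change was −1.38 ± 0.96 (limma adjusted p = 0.791). Col2a1, the main collagen of the vitreous, had 112, 6 and 55 reads against 50, 12, 10 and 2 reads, with a change of −1.57 ± 1.67 (limma adjusted p = 0.877).

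Col1a1 and Col18a1 show how 1 library can hold a gene's level. Col18a1, whose C-terminal fragment is endostatin, had 21, 33 and 35 reads against 228, 0, 98 and 10 reads. The mean CPM was 19.8 ± 6.50 in control and 53.5 ± 70.7 in anti-Dll4 libraries, yet its log2 change was −0.37 ± 1.69, because a library at 0 weighs heavily on a log scale. Col1a1, the main fibrillar collagen of connective tissue, had 479 reads in anti-Dll4 3 and 1 to 3 reads in the other anti-Dll4 libraries. Fibroblast markers (5 of 9 listed in the table) summed to 11.1 to 60.2 CPM under control IgG and 4.02 to 115 CPM in anti-Dll4 libraries. Col15a1, the related chain of vessel and muscle basement membranes, had 45, 0 and 1 reads against 66, 0, 0 and 0 and was not tested. Signs of the log2 change and of the difference of mean CPM disagreed for 9 of the 51, Col18a1 and Col1a1 among them, or 17.6% against 12.5% of all genes tested.

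Of the integrin beta chains, Itgb1, the common partner of collagen, laminin and fibronectin receptors, had the highest mean CPM. It stood at 55.5, 18.4 and 105 CPM under control IgG and 45.5, 191, 132 and 143 CPM in anti-Dll4 libraries. Anti-Dll4 1 lay among the controls and the other anti-Dll4 libraries lay above them. The log2 change was 1.23 ± 0.79 (−0.40 to 2.86, limma adjusted p = 0.765), and −0.20 under scaling on endothelial markers. Itgb5 had 32, 2 and 4 reads against 1, 97, 116 and 7 reads. Its change was 1.27 ± 1.81 (limma adjusted p = 0.912). Itgb3, the beta chain of the vitronectin and platelet fibrinogen receptors, had at most 9 reads in any library, with a change of −0.71 ± 1.01 (limma adjusted p = 0.912). Itgb2 and Itgb7, the leukocyte chains, had at most 14 reads.

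Among the alpha chains the 3 laminin-binding ones, Itga3, Itga6 and Itga7, all had positive changes. Itga6, the partner of Itgb1 in a laminin receptor of endothelial cells, had 161, 56.0 and 150 CPM under control IgG and 127, 117, 309 and 174 CPM in anti-Dll4 libraries. Its groups overlapped, with a change of 0.60 ± 0.59 (−0.64 to 1.83, limma adjusted p = 0.866), which was −0.84 under scaling on endothelial markers. Itga3 had 0, 0 and 1 reads against 51, 5, 2 and 1 reads, and Itga7 had 0, 0 and 2 against 3, 22, 2 and 4. Of the RGD-binding chains, Itgav and Itga5 were near the limit of detection. Itgav, which binds vitronectin and fibronectin, had 2 to 7 reads in the 6 libraries where it was seen, with a change of 0.71 ± 1.00 (limma adjusted p = 0.911). Itga5, the classical fibronectin receptor chain, had 0, 1 and 1 reads against 0, 1, 19 and 0 and was not tested. Itga8 had 91 reads in anti-Dll4 4 and at most 1 elsewhere. Itga1 was not analysed here.

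Itga10 and Itga2b had the most negative changes of the integrins. Itga10, singled out after its values were seen, is the collagen-binding alpha chain in the table. The 3 control libraries had 62, 54 and 59 reads and the anti-Dll4 libraries 90, 0, 0 and 4, with a change of −3.38 ± 1.78 (limma adjusted p = 0.711). Itga2b, the platelet fibrinogen receptor chain, had 47, 41 and 105 reads in control and 20, 1, 4 and 11 reads in anti-Dll4 libraries. Its groups did not overlap, and its change was −3.04 ± 1.62 (−6.40 to 0.33, limma adjusted p = 0.713). Platelet markers, 3 of 5 listed in the table, summed to 3.54 to 41.3 CPM under control IgG and 3.35 to 65.1 CPM in anti-Dll4 libraries, so their ranges overlapped. Itga4, which binds fibronectin and the endothelial protein VCAM1, had 17, 4 and 31 reads against 46, 2, 141 and 8, with a change of 0.45 ± 1.73 (limma adjusted p = 0.971). The leukocyte chains gave small counts. Itgam had 6, 10 and 11 reads against 1, 3, 4 and 19, with a change of −0.88 ± 1.43 (limma adjusted p = 0.921), and Itgal had at most 9 reads.

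**Figure D3:**
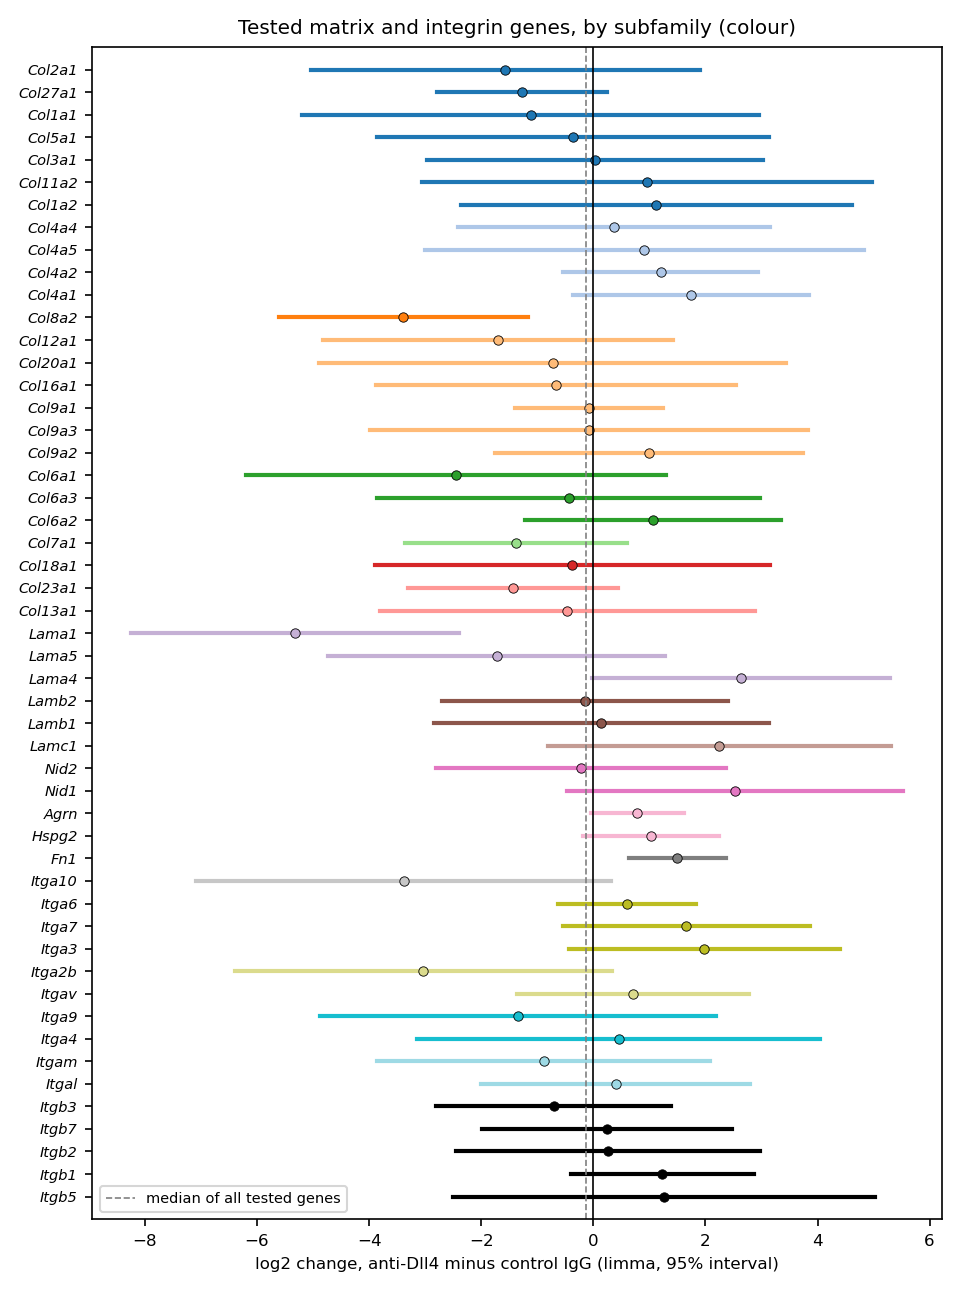
Log2 change (anti-Dll4 minus control, limma) of the 51 tested matrix and integrin genes with 95% intervals, coloured by subfamily. The interval excludes 0 for Fn1, Lama1 and Col8a2, and none of the 51 passed after adjustment over all 10899 genes tested. Lama1 and Col8a2 were tested through the control group alone.

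Reads of these genes were uneven among libraries. 1 library held most of a gene's CPM for 34 of 65 (52.3%), against 33.8% of all genes in the table. All 7 libraries had reads for 22 of 65 (33.8%), against 52.4% of all genes. For 9 of the 65, namely 8 collagens and Lama2, all reads came from 1 library. Col17a1, Col25a1, Col26a1 and Col6a5 were seen in control IgG 1 alone, and Col19a1 and Col6a4 in control IgG 3 alone. Anti-Dll4 3 was the library with the highest CPM for 16 of the 51 tested (31.4%), against 17.7% of all genes tested. It also held the highest sum of all 65 genes, 4502 CPM against 2054 to 3155 CPM in the other 6 libraries. It was the library with the lowest rod marker sum as well. Its endothelial (6269 CPM), smooth muscle (465 CPM), fibroblast (115 CPM), ganglion cell, platelet and lens marker sums were the highest of the 7. The part of these in its matrix levels was not tested.

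The other genes of the pathway did not pass either, with 1 exception. Of 20 tested further matrix components, 12 had a positive change, and Sparc, a collagen-binding matricellular protein, rose by 2.74 ± 0.47 (limma adjusted p = 0.0158), from 101, 90 and 270 reads to 632, 920, 1249 and 1339. Scaled on endothelial markers the change of Sparc was 1.31 and no longer passed (limma adjusted p = 0.150). It also did not pass without the mean-variance trend (limma adjusted p = 0.424), with limma-voom (adjusted p = 0.0561), or without control IgG 1 (limma adjusted p = 0.0591), anti-Dll4 2 (0.0618) or anti-Dll4 4 (0.123). Collagen biosynthesis genes were positive in 8 of 19. Among them Fkbp10, a collagen chaperone of the endoplasmic reticulum, had 13, 3 and 12 reads against 115, 188, 316 and 336 reads, without overlap, with a change of 4.41 ± 1.04 (limma adjusted p = 0.137). Serpinh1, the collagen chaperone HSP47, had 57, 179 and 80 reads against 164, 237, 941 and 684, with a change of 1.94 ± 0.67 (limma adjusted p = 0.494). Of 5 tested crosslinking enzymes 3 were positive, and Tgm2, a transglutaminase, had 243, 354 and 95 reads against 425, 494, 890 and 1091, with a change of 1.60 ± 0.51 (limma adjusted p = 0.400). Loxl3, a lysyl oxidase, had 79, 30 and 12 reads against 33, 27, 0 and 7, with a change of −1.67 ± 1.71 (limma adjusted p = 0.869).

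Receptor-side genes were divided. Integrin adaptors and activators were positive in 11 of 24, with a median of −0.06. Those with the smallest p were Rap1b, a small GTPase that activates integrins, at 1.57 ± 0.70 (limma adjusted p = 0.695), and Parvb, a parvin of the adhesion plaque, at 1.36 ± 0.69 (limma adjusted p = 0.706). Other matrix receptors were positive in 9 of 10, with a median of 1.16, where 45.5% of all genes tested were positive. Of the 12 listed, 8 were at 0 in at least 1 library, and 1 library held most of the CPM for 5. Scaling on endothelial markers lowers all these changes by the same amount. Rpsa, which doubles as a ribosomal protein and a laminin receptor, had 1.99 ± 0.78 (limma adjusted p = 0.642). Sdc4, a syndecan of adhesion sites, had 2.40 ± 1.65 (limma adjusted p = 0.785). Matrix proteases and their inhibitors were positive in 9 of 15, where Reck, a membrane inhibitor of matrix metalloproteinases, had −3.16 ± 1.50 (limma adjusted p = 0.695). The endothelial markers were positive in 17 of 20, as given above, and under scaling on them 943 of all genes tested passed, or 8.65%, of which 942 were lower. Under that scaling 4 of the 51 passed, all lower: Lama1, Col8a2, Col23a1 and Col27a1. Lama1 and Col8a2 had 0 reads in all 4 anti-Dll4 libraries and were tested through the control group alone. The scaling subtracted 0.36 to 0.82 from the log2 values of anti-Dll4 libraries, so these zeros fell below 0. It therefore set part of the difference for these genes.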

How the data were processed

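Retinal ribosome-bound RNA of 3 control IgG and 4 anti-Dll4 libraries was analysed. The authors used cutadapt, TopHat2 and bedtools, with no versions given, and a build named as hg19, per the submitters' processing notes, although the gene symbols are mouse. How reads were counted, on which annotation and whether by strand is not given in the sources used here. Overlapping, antisense and near-identical genes are therefore uncertain. The deposited values are log10(CPM + 1). Turned back, the CPM were whole multiples of a single read in 100% of values (tolerance 1e-06), which gave the reads quoted. Every gene in the deposited table had at least 10 reads over the libraries. One control column carries the number 1, which matches no control title. The remaining title is numbered 15, and the column was counted as a control library without pairing it to a number.

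The test was run on log2(CPM + 1) with limma 3.58.1 in R 4.3.3 (two-sided, mean-variance trend, antibody as the only term), for genes that reached 1 CPM in 3 or more libraries. Alternatives were pseudocounts of 0.5 and 5, a filter of 5 CPM, no trend, limma-voom, scaling on median ratios or on endothelial markers, a replicate block and each library left out in turn. Named genes are the main vascular basement membrane and endothelial integrin genes whatever their result, members at an unadjusted p under 0.05, the member of highest mean CPM in each subfamily with at least 2 tested, and, of each pathway list, those past the threshold or else the 2 of smallest p. One gene named by this rule is not reported here. Any other gene was chosen after its values were seen. The members and lists were chosen with earlier results of these data known. The code was tested on simulated data.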

Additional observations from a re-analysis of the deposited data

Results flagged for a closer look

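Of the 27 named matrix and integrin genes tested, 1 had a library far from the others of its group. Lamb2 had 8 reads in anti-Dll4 4, a log2(CPM + 1) value of 2.46, while the other anti-Dll4 libraries had 53, 79 and 90 reads. The gap to the nearest library was 0.842 of the range of the group, above Dixon's 95% critical value for 4 libraries. Chance alone can flag 1 such group among 27, since the critical value is passed in 5% of groups without a true outlier. Control libraries, with n = 3, were not looked at in this way.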

How the results depend on the processing

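The number of genes past the threshold over the whole table was 13, and it was 0 without the mean-variance trend, 38 with limma-voom, 943 with scaling on endothelial markers and 3 to 22 with each library left out. With the replicate block it was 3 (1 higher and 2 lower), but libraries numbered 3 and 4 share only a number (correlations of deviations 0.0457 and 0.0672). Among the matrix and integrin genes the count was 0, and it was 1 with limma-voom and 4 with scaling on endothelial markers. The 1 was Lama1, and the 4 included Lama1 and Col8a2, both tested through the control group alone. Their median log2 change of 0.03 was −0.37 with the 5 CPM filter, 0.51 with the replicate block (0.15 for collagens and 1.31 for laminins) and −1.41 with endothelial scaling, which moved the median of all genes from −0.14 to −1.57, and lay between −0.068 and 0.37 with libraries left out. Endothelial scaling turned the sign of Col4a2 (−0.23), Lamb1 (−1.29), Hspg2 (−0.40), Agrn (−0.65), Itga6 (−0.84), Itgav (−0.73), Itgb1 (−0.20), Itgb5 (−0.17), Itga4 (−0.98) and the adaptor Parvb (−0.074), and Reck then passed (−4.59, limma adjusted p = 0.0499). Sparc did not pass with the block (limma adjusted p = 0.453). The pseudocount of 5 turned Col18a1 (0.14), and the block turned Lama5 (1.06), Nid2 (0.11) and Col9a1 (0.16). With libraries left out, signs turned for Col18a1 (−1.48 to 0.95), Lamb1 (−0.86 to 1.35), Lamb2 (−0.46 to 0.62), Nid2 (−0.69 to 0.26), Col9a1 (−0.45 to 0.30) and Itga4 (−0.41 to 1.31). Endothelial scaling subtracts 1 value per library from every gene. It therefore lowered all log2 changes by the same amount and could turn positive ones only. Leaving a library out or changing the filter also changed which genes were tested. The cause of the other moves was not tested. For 13 of the 27 named matrix and integrin genes the direction held in every alternative that gave a value. Lama1, Col8a2 and Lama4 were among these. Each was at 0 in all libraries of 1 group, so leaving a library out could not turn its sign. Depth limits the genes near 3 reads per library, Itga5, Itgav, Itgb3, Nid2 and Lamc1 among them.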
